A study of Mus musculus with 32 samples.

Results

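The genes described here are 9 interferon-stimulated genes of the mouse, Ifit1, Ifit2, Ifit3, Ddx58, Isg15, Irf7, Irf9, Stat2 and Oasl2. They were named in advance of the tests below, but with earlier results of these data known. Each was represented by its brightest probe set, out of 19938 named genes on the array. A probe set of their own symbol was present for 8 of the 9, and all 8 passed the filter on low values, among 15219 genes tested. The only probe set of Isg15 was annotated to Isg15 and Gm9706 together, so Isg15 is given no value here.

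Transcripts were measured on Affymetrix Mouse Gene 1.0 ST arrays in both atria of each of 16 mice, 4 per genotype, with 32 arrays in all. The genotypes were Ntg (non-transgenic), Mst1 (transgenic for mammalian sterile 20-like kinase 1, the product of the gene Stk4), dnPI3K (a dominant negative phosphoinositide 3-kinase) and dnPI3K-Mst1 (the double mutant). All mice, the Ntg controls included, came from a mixed C57BL/6 and FVB/N background and ate standard chow. The age and sex of the animals, the promoters of the transgenes and the number of founder lines are not given in the sources used here. The whole atrium was homogenised, so cells of every type in it contributed RNA.

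Type I interferons act on cells through a shared receptor, whose kinases phosphorylate STAT2. STAT2 joins IRF9 in a complex that binds the interferon-stimulated response element in the promoters of antiviral genes. The products of those genes include sensors of foreign RNA, proteins that block its translation, and the transcription factors of the pathway itself, so that the response feeds its own machinery. In hearts such genes are known to respond to viral infection, to nucleic acid released from damaged cells and to infiltrating leukocytes.

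The response element was looked for in the promoter windows of RefSeq (GRCm38.p6), from 250 bases before to 50 bases after each start. Its core, GAAA and GAAA parted by any 2 bases on either strand, was found in 5 of the 11 windows of the members, against 3.44% of all 32851 windows. Ifit2 and Irf9 have 2 windows each, and the 5 windows belong to Ifit1, Ifit3, Isg15, Stat2 and Ddx58. The stretches around the matches of 4 of them are shown because they include 2 genes that rose in the double mutant, 1 that did not and Isg15, which could not be read. Each is printed along the strand of its gene, with the core in capitals. A core on the opposite strand reads as TTTC and TTTC parted by any 2 bases.
Ifit1, chr19:34640760-34640838, plus strand, from 129 to 51 bases before the start: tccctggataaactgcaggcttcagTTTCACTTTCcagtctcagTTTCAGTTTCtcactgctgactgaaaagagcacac
Ifit3, chr19:34583348-34583441, plus strand, from 181 to 88 bases before the start: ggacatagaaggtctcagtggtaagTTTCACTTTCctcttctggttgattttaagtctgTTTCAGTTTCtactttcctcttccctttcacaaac
Isg15, chr4:156200850-156200921, minus strand, from 103 to 32 bases before the start: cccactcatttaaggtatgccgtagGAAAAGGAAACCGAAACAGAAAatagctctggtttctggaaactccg
Stat2, chr10:128270251-128270310, plus strand, from 247 to 188 bases before the start: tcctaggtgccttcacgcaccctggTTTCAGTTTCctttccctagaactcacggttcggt
Ifit1 and Ifit3 each held 2 separate cores, Isg15 held 3 that overlap, and Stat2 held 1. In Ddx58 the core began 3 bases after the start. Of the 2 windows of Ifit2 the first held the core of the gamma-activated site, TTCNNNGAA, and the second held neither core. That core was in 1 of the 11 windows of the members and in 8.3% of all windows. The windows of Irf7, Irf9 and Oasl2 held neither. These matches describe the letters of the windows and were not tested against the levels below.

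The arrays had medians of 5.51 to 5.68 log2. Stk4, the gene of the Mst1 transgene, averaged 8.25 in Mst1 and 8.33 in dnPI3K-Mst1 against 7.54 in Ntg and 7.61 in dnPI3K, and both transgenic groups lay above both others in every animal. Pik3ca, a catalytic subunit of phosphoinositide 3-kinase, averaged 10.04 log2 in dnPI3K and 10.27 in the double mutant, against 9.11 in Ntg and 9.73 in Mst1. Its animals ran from 9.28 to 9.95 log2 in Mst1 and from 9.90 to 10.11 in dnPI3K. Pik3ca thus did not separate Mst1 from dnPI3K. Each animal had 1 array with high Bmp10 (11.42 to 12.77) and 1 with low Bmp10 (3.77 to 6.64). Bmp10 is known as a right atrial gene of the adult mouse, but the high array was labelled left in 13 animals and right in 3, so atria are named here by their Bmp10 level. On 4 arrays the mean correlation with the others was under 0.97 (Mst1 1466, dnPI3K 3241, dnPI3K 1507 and Ntg 1662). All 4 were Bmp10-high arrays and none was from a double mutant, so low correlation was unevenly spread over atria and genotypes.

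Over the mean of both atria of each animal, Ifit1, Ifit2, Ifit3 and Ddx58 were higher in the double mutant than in Ntg, by 1.21 to 1.82 times, and no animal of the 2 groups overlapped in any of them. The transcription factors Stat2, Irf9 and Irf7 and the effector Oasl2 did not pass the test. In each single transgenic, Ifit2 alone passed. The count of members called higher in the double mutant, 4 of 8 by limma at an adjusted p under 0.05, stands beside 16.4% of all genes tested. The count with no overlap, also 4 of 8, stands beside 18.4%. Since the members were chosen with earlier results of these data known, counts set beside such shares are a description and no independent test. The median difference was 0.24 log2 over the members and 0.02 over all genes.

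**Figure D1:**
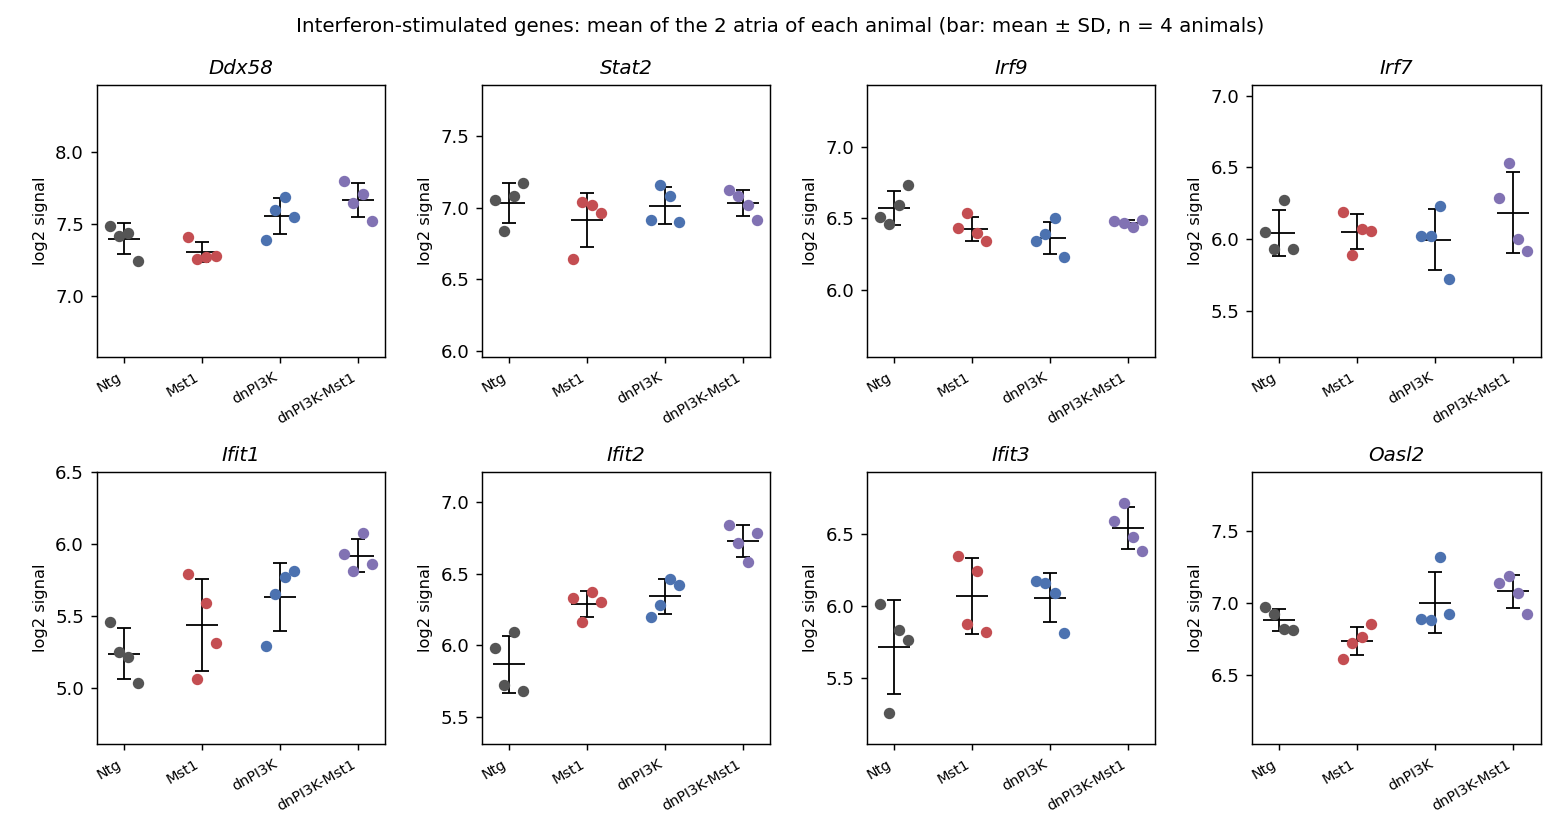
Log2 signal (y axis) of the 8 measured members in the 4 genotypes (x axis). Each point is the mean of both atria of 1 animal, and bars give the mean and SD of 4 animals. The axes span the same width in log2. The double mutant lies above Ntg without overlap in Ifit1, Ifit2, Ifit3 and Ddx58.

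The IFIT proteins bind foreign or incompletely capped RNA and block its translation, and their genes lie close together on chromosome 19. Ifit2 separated the genotypes best. Its signal in the Ntg animals 1301, 1657, 1662 and 1834 was 5.98, 5.72, 6.09 and 5.68 log2. In the Mst1 animals 1466, 1838, 1839 and 1840 it was 6.33, 6.16, 6.37 and 6.30 log2. The dnPI3K animals 1507, 1648, 1660 and 3241 gave 6.20, 6.28, 6.46 and 6.42 log2. All animals of both single transgenics thus lay above all Ntg animals, while the single transgenics overlapped each other. The double mutants 1509, 1647, 1649 and 1650 gave 6.84, 6.71, 6.58 and 6.78 log2, above every other animal.

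Against Ntg, Ifit2 rose by 0.42 ± 0.09 log2 (SE) in Mst1, or 1.34 times, with a limma adjusted p of 0.002. It rose by 0.47 ± 0.09 log2 in dnPI3K, or 1.39 times (limma adjusted p 0.006), and by 0.86 ± 0.09 log2 in the double mutant, or 1.82 times (limma adjusted p 7.6e-07). These 3 comparisons share the Ntg animals. The share of all genes called higher was 12.6% in Mst1 and 1.29% in dnPI3K, and 1 of 8 members was called in each. In Mst1 the count of members called rose to 2 without Ntg 1301, where Ifit3 gave 0.46 log2 with a limma adjusted p of 0.029, and without Mst1 1840, where Ifit3 gave 0.44 log2 with an adjusted p of 0.042.

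Ifit1 had its lowest values in Ntg, at 5.46, 5.25, 5.21 and 5.03 log2 in animals 1301, 1657, 1662 and 1834. The Mst1 animals 1466, 1838, 1839 and 1840 spread widely, at 5.79, 5.06, 5.59 and 5.31 log2, and overlapped Ntg. In the dnPI3K animals 1507, 1648, 1660 and 3241 the signal was 5.29, 5.65, 5.77 and 5.81 log2, and only 1507 fell among the Ntg animals. The double mutants 1509, 1647, 1649 and 1650 lay at 5.93, 5.81, 6.08 and 5.86 log2, above all Ntg and Mst1 animals. Ifit1 rose by 0.68 ± 0.14 log2 in the double mutant, or 1.60 times (limma adjusted p 0.00075). The difference was 0.20 ± 0.14 log2 in Mst1 and 0.39 ± 0.14 log2 in dnPI3K (limma adjusted p 0.33 and 0.13), with 95% intervals of -0.09 to 0.49 and 0.10 to 0.68 before adjustment.

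Ifit3 was more scattered within Ntg, at 6.01, 5.25, 5.83 and 5.76 log2 in animals 1301, 1657, 1662 and 1834. The Mst1 animals 1466, 1838, 1839 and 1840 gave 6.35, 5.87, 6.24 and 5.82 log2, and the dnPI3K animals 1507, 1648, 1660 and 3241 gave 6.17, 6.16, 6.09 and 5.81. The highest Ntg animal lay within the range of both. The double mutants 1509, 1647, 1649 and 1650 gave 6.59, 6.72, 6.48 and 6.38 log2, and the lowest of them was just above the highest Mst1 animal. Ifit3 rose by 0.83 ± 0.14 log2 in the double mutant, or 1.77 times (limma adjusted p 0.00017). The difference was 0.36 log2 in Mst1 and 0.34 log2 in dnPI3K (limma adjusted p 0.075 and 0.22). Mouse Ifit3 has a near-identical neighbour, Ifit3b, and the signal of this probe set may hold both.

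Oasl2 belongs to the family of oligoadenylate synthetases, which respond to double-stranded RNA and activate RNase L. It averaged 6.88 ± 0.08 log2 (SD, n = 4) in Ntg and 7.08 ± 0.12 in the double mutant, with 6.74 ± 0.10 in Mst1 and 7.0 ± 0.21 in dnPI3K. The difference of 0.20 log2 between the double mutant and Ntg had a 95% interval of 0.00 to 0.40 before adjustment and a limma adjusted p of 0.12. The order of its means, with Mst1 lowest, differed from that of the IFIT genes, where Ntg was lowest.

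Ddx58 encodes RIG-I, the cytoplasmic receptor for viral RNA that signals through MAVS. Its signal in the Ntg animals 1301, 1657, 1662 and 1834 was 7.49, 7.42, 7.44 and 7.24 log2, and in the Mst1 animals 1466, 1838, 1839 and 1840 it was 7.41, 7.26, 7.27 and 7.28. These 2 groups overlapped. The dnPI3K animals 1507, 1648, 1660 and 3241 gave 7.39, 7.60, 7.69 and 7.55 log2. In the double mutants 1509, 1647, 1649 and 1650 it was 7.80, 7.65, 7.71 and 7.52 log2, above all Ntg and Mst1 animals but not above dnPI3K. The rise over Ntg was 0.27 ± 0.08 log2, or 1.21 times (limma adjusted p 0.017). It no longer passed without Ntg 1834 (0.22 log2, adjusted p 0.07), without dnPI3K-Mst1 1509 (0.23 log2, 0.065) or with arrays centred on their median (0.23 log2, 0.061), all by limma.

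Stat2 and Irf9, whose products act together in the complex that interferon activates, did not pass the test in any transgenic genotype against Ntg. Stat2 averaged 7.04 ± 0.14 log2 (SD, n = 4) in Ntg and 7.03 ± 0.09 in the double mutant, with 6.91 ± 0.19 in Mst1 and 7.01 ± 0.13 in dnPI3K. Its difference between the double mutant and Ntg was 0.00 log2, with a 95% interval of -0.21 to 0.20. Irf9 averaged 6.57 ± 0.12 log2 in Ntg and 6.47 ± 0.02 in the double mutant, with 6.43 ± 0.08 in Mst1 and 6.37 ± 0.11 in dnPI3K. It was lowest in dnPI3K, at -0.21 log2 from Ntg (95% interval -0.36 to -0.05 and p 0.014 before adjustment, limma adjusted p 0.15). For the double mutant the interval of Irf9 was -0.26 to 0.05 log2. The intervals of Stat2 and Irf9 in the double mutant end below 0.39 log2, the lower bound of Ifit1. That of Ddx58, 0.10 to 0.45 log2, overlapped the interval of Stat2. Differences between genes were not tested.

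Irf7, which drives the production of interferon alpha once induced, averaged 6.04 ± 0.16 log2 (SD, n = 4) in Ntg and 6.19 ± 0.28 in the double mutant. The double mutants were divided, with 6.29 and 6.53 log2 in 1509 and 1647 and 6.00 and 5.92 in 1649 and 1650. The Ntg animals ran from 5.93 to 6.27 log2, so the groups overlapped. The difference was 0.14 log2 (95% interval -0.12 to 0.41, limma adjusted p 0.43).

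**Figure D2:**
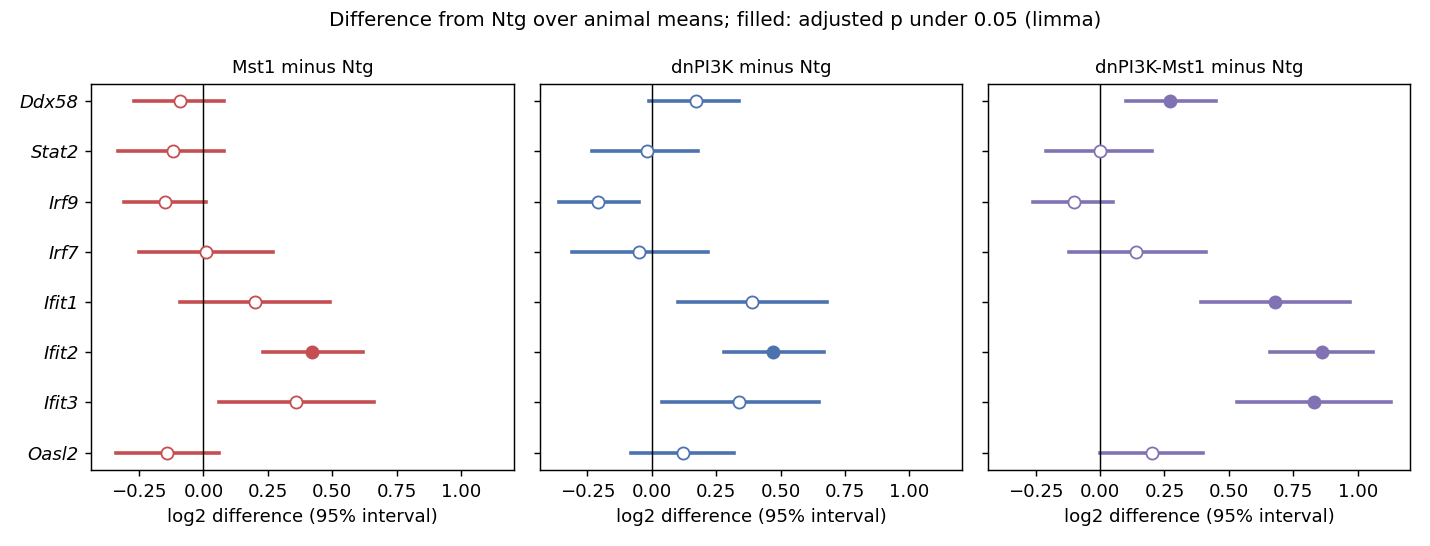
Log2 difference from Ntg (x axis) of the 8 members (y axis) in each transgenic genotype, over animal means. Points give limma's estimate with its unadjusted 95% interval, and filled points passed an adjusted p under 0.05. Ifit2 is filled in all 3 panels, and Ifit1, Ifit3 and Ddx58 are filled in the double mutant.

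Comparing the double mutant with each single transgenic asks what the second transgene adds. Against Mst1, Ifit2 was 0.44 ± 0.09 log2 higher, or 1.36 times (limma adjusted p 0.013), and Ddx58 was 0.37 ± 0.08 log2 higher, or 1.29 times (limma adjusted p 0.018). The share of genes called higher in this comparison was 2.65%, against 2 of 8 members. Ifit1, Ifit3 and Oasl2 were higher by 0.48, 0.47 and 0.34 log2 but missed the threshold (limma adjusted p 0.058, 0.076 and 0.052). The animals of both genotypes did not overlap in any of these 5 genes, against 8.13% of all genes. With the animal number as a replicate block over all 32 arrays, 4 members were called, as Ifit1 and Oasl2 then passed (limma adjusted p 0.037 and 0.032). The count was 4 without Mst1 1466, and 1 without Mst1 1838, Mst1 1839 or dnPI3K-Mst1 1509, since Ddx58 then gave adjusted p of 0.054, 0.064 and 0.067 by limma.

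Against dnPI3K, the double mutant had more Ifit2 and Ifit3, by 0.39 ± 0.09 and 0.48 ± 0.14 log2, or 1.31 and 1.40 times (limma adjusted p 0.0053 and 0.02). Genes called higher made up 12.8% of those tested. Ddx58 was 0.11 log2 higher, which did not pass (limma adjusted p 0.39). The call of Ifit3 was lost without dnPI3K 3241 (0.40 log2, limma adjusted p 0.08), without dnPI3K-Mst1 1647 (0.42 log2, 0.065) and without the 4 animals whose arrays correlated less (0.41 log2, 0.10).

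Between the single transgenics, Ddx58 was lower in Mst1 than in dnPI3K, at -0.26 ± 0.08 log2 (limma adjusted p 0.033), where 21.9% of all genes were called in either direction and 1 of 8 members was. Oasl2 lay at -0.27 ± 0.10 log2 in the same comparison (limma adjusted p 0.052) and passed with the animal number as a replicate block (adjusted p 0.043). The call of Ddx58 was lost without any 1 of 6 animals, Mst1 1838, 1839 or 1840 or dnPI3K 1648, 1660 or 3241 (limma adjusted p 0.086, 0.081, 0.07, 0.079, 0.11 and 0.054). The IFIT genes differed by -0.19 to 0.01 log2 between the single transgenics, and none passed.

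The non-additivity term compares the double mutant with the sum of both single differences on the log2 scale. It was called in 0 of 8 members by limma, against 0.368% of all genes called above the sum, and 1 member had an unadjusted p under 0.05. That was Irf9, at 0.25 ± 0.11 log2 (unadjusted p 0.033, limma adjusted p 0.39). For Ifit1, Ifit2 and Ifit3 the term was 0.09, -0.03 and 0.13 log2, with 95% intervals of -0.32 to 0.50, -0.31 to 0.25 and -0.30 to 0.55. With 4 animals per genotype, departures of this size from additivity were not resolved.

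In the atria with high Bmp10, the 3 IFIT genes rose in the double mutant. Ifit3 was 1.11 ± 0.17 log2 above Ntg there, or 2.15 times (limma adjusted p 7.4e-05), Ifit2 was 0.96 log2 above, or 1.95 times (6.2e-06), and Ifit1 was 0.84 log2 above, or 1.80 times (0.0014). Genes called higher made up 8.11%, against 3 of 8 members. In the single transgenics 0 of 8 members were called in these atria by limma, where 5.30% of genes in Mst1 and 0.269% in dnPI3K were called higher. At an unadjusted p under 0.05 the counts were 1 in Mst1 and 2 in dnPI3K. Without dnPI3K 1507, whose Ifit1 signal of 5.03 log2 lay below the 5.78 to 5.86 of the other dnPI3K animals, Ifit1 was called in dnPI3K at 0.76 log2 (limma adjusted p 0.02).

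Ifit3 in the atria with high Bmp10 gave 5.78, 5.21, 5.80 and 5.66 log2 in Ntg 1301, 1657, 1662 and 1834. The double mutants 1509, 1647, 1649 and 1650 gave 6.66, 6.76, 6.89 and 6.57 log2. The lowest double mutant was thus above the highest Ntg animal by more than the whole range of Ntg. In the atria with low Bmp10 the same Ntg animals gave 6.25, 5.29, 5.87 and 5.86 log2, and the double mutants gave 6.53, 6.68, 6.07 and 6.18. There the groups overlapped.

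In the atria with low Bmp10, Ifit2 was called in all 3 transgenic genotypes. It was 0.76 log2 above Ntg in the double mutant (limma adjusted p 0.00033), 0.55 log2 above in Mst1 (0.0055) and 0.54 log2 above in dnPI3K (0.036). Ifit3 was 0.55 log2 above Ntg in the double mutant, 0.49 log2 above in dnPI3K and 0.43 log2 above in Mst1, and the first of these passed (limma adjusted p 0.039, 0.18 and 0.12). Ifit1 was 0.52 log2 above in the double mutant, which passed, and 0.23 and 0.10 log2 above in dnPI3K and Mst1 (limma adjusted p 0.034, 0.59 and 0.75). Genes called higher made up 16.5% in the double mutant, 14.8% in Mst1 and 1.62% in dnPI3K, against 3, 1 and 1 of 8 members. Leaving out 1 animal ended several of these calls. For Ifit1 in the double mutant the animals were Ntg 1657, 1662 or 1834 and dnPI3K-Mst1 1509, 1649 or 1650, with limma adjusted p of 0.051 to 0.12. For Ifit3 they were Ntg 1657, 1662 or 1834 and dnPI3K-Mst1 1509 or 1647 (0.063 to 0.15). The call of Ifit2 in dnPI3K was lost without Ntg 1301, 1657 or 1834 or any 1 dnPI3K animal (limma adjusted p 0.052 to 0.11). In Mst1, Ifit3 was called as well without Mst1 1838 or Ntg 1301 (limma adjusted p 0.049 and 0.04).

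**Figure D3:**
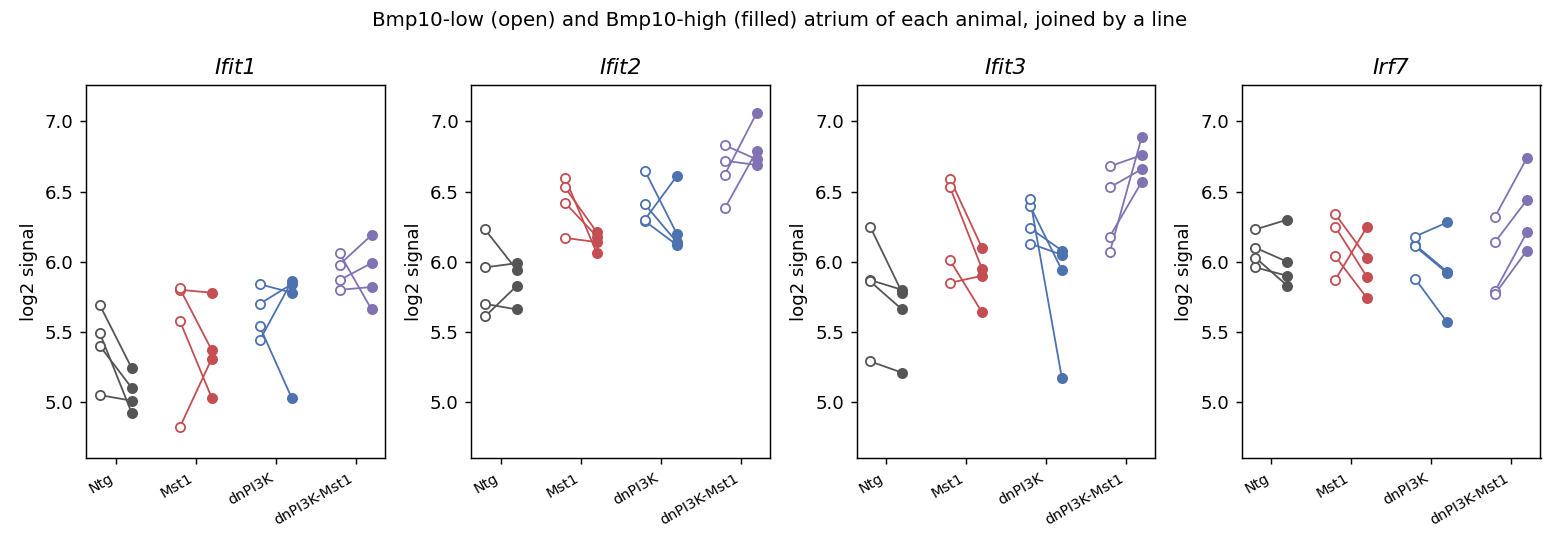
Log2 signal (y axis) of Ifit1, Ifit2, Ifit3 and Irf7 in the Bmp10-low atrium (open points) and the Bmp10-high atrium (filled points) of each animal, joined by a line, for the 4 genotypes (x axis). In the double mutant the lines of Ifit3 and Irf7 run upward in 4 of 4 animals, and in dnPI3K the lines of Ifit3 run downward in 4 of 4.

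The difference between the atria of 1 animal was then compared directly. Averaged over the 4 genotypes it was called in 0 of 8 members by limma, and all 8 lay at or below 0, from -0.17 to 0.00 log2. Of all genes 5.42% were called lower in the Bmp10-high atrium. 1 member had an unadjusted p under 0.05, Ifit3 at -0.17 ± 0.08 log2 (limma adjusted p 0.22).

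Within the double mutant, Irf7 was higher in the Bmp10-high atrium in 4 of 4 animals, by 0.29, 0.42, 0.42 and 0.31 log2 in 1509, 1647, 1649 and 1650. In Ntg 1301, 1657, 1662 and 1834 the same difference was -0.11, -0.06, 0.08 and -0.19 log2. Ifit3 likewise differed by 0.13, 0.08, 0.82 and 0.40 log2 in those double mutants and by -0.47, -0.09, -0.07 and -0.20 log2 in those Ntg animals. Neither gene overlapped between the 2 genotypes, which makes 2 of 8 members, against 3.34% of all genes. Within the double mutant alone the difference was 0.36 ± 0.11 log2 for Irf7 and 0.36 ± 0.15 log2 for Ifit3, and neither passed (limma adjusted p 0.13 and 0.57). The interaction of genotype and atrium was 0.43 ± 0.15 log2 for Irf7 and 0.56 ± 0.22 log2 for Ifit3, and neither passed (limma adjusted p 0.28 and 0.37). By limma 0 of 8 members were called in this interaction for the double mutant, Mst1 or dnPI3K, with 2, 0 and 0 at an unadjusted p under 0.05. The share of all genes called in the positive direction was 0.421% for the double mutant, 0.421% for Mst1 and 0.0394% for dnPI3K.

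In dnPI3K, 0 of 8 members lay above 0 in the difference between the atria. Ifit3 differed by -0.46, -0.16, -0.09 and -1.28 log2 in dnPI3K 1507, 1648, 1660 and 3241, so it was lower in the Bmp10-high atrium in 4 of 4 animals and farthest in 3241. Its mean was -0.50 ± 0.15 log2 (limma adjusted p 0.073, unadjusted 0.0041). By adjusted p this was nearer to the threshold than Irf7 or Ifit3 within the double mutant. By unadjusted p Irf7 in the double mutant was the lower, at 0.0031 by limma. Oasl2 averaged -0.30 ± 0.10 log2 and was lower in 3 of 4 animals, and Stat2 averaged -0.24 ± 0.11 log2 and was lower in 4 of 4 (limma adjusted p 0.11 and 0.30). By limma 0 of 8 members were called within dnPI3K, with 3 at an unadjusted p under 0.05, and 3.25% of all genes were called lower. The Bmp10-high arrays of 1507 and 3241 are among the 4 that correlated less with the others. All 4 of those are Bmp10-high arrays, and none is from a double mutant.

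The ligands and receptors upstream of these genes are given next, then the rest of the pathway. The counts below stand beside 16.4% of all genes called higher and 14.2% called lower in the double mutant, 12.6% and 14.2% in Mst1, and 1.29% and 2.75% in dnPI3K. Of 21 interferon ligand genes 16 had a probe set of their own and 7 passed the filter. By limma 0 of these 7 were called in any transgenic genotype against Ntg, with 0, 2 and 1 at an unadjusted p under 0.05 in Mst1, dnPI3K and the double mutant. Without dnPI3K-Mst1 1509, 1 was called lower in the double mutant. Ifnb1, the interferon beta that starts most type I responses, averaged 4.33 log2 in Ntg and 4.22 in the double mutant, below the filter of 4.48. Ifng, the interferon of T and NK cells, averaged 4.37 and 4.41 log2, also below it.

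Among the 10 receptor and JAK-STAT genes tested, 2 rose and 2 fell in the double mutant, near the 16.4% and 14.2% of all genes. Ifnar1, a chain of the type I receptor, rose by 0.27 ± 0.09 log2 and Ifngr1 of the gamma receptor by 0.34 ± 0.10 log2 (limma adjusted p 0.03 and 0.011). Ifngr2, the other chain of the gamma receptor, lay at -0.52 ± 0.08 log2, and Stat3 at -0.37 ± 0.11 log2 (limma adjusted p 4.5e-05 and 0.017). The count of rises was 1 without Ntg 1657, Ntg 1834 or dnPI3K-Mst1 1647, and the count of falls was 1 without Ntg 1657. In Mst1, 0 rose and 2 fell, again Ifngr2 and Stat3 (-0.47 and -0.40 log2, limma adjusted p 0.00014 and 0.011), and 1 rose without Mst1 1466. In dnPI3K, 0 rose and 1 fell, Stat3 at -0.40 log2 (limma adjusted p 0.049). That count was kept without Mst1 1466, Mst1 1840, dnPI3K 1660 or dnPI3K-Mst1 1647 and was 0 without each of the other 12 animals.

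Of 22 nucleic acid sensors, adaptors and kinases tested besides Ddx58, 6 rose and 1 fell in the double mutant, beside 16.4% and 14.2% of all genes. Tlr8, an endosomal RNA receptor, rose by 0.66 ± 0.17 log2, and Sting1, the adaptor for cytoplasmic DNA, by 0.43 ± 0.10 log2 (limma adjusted p 0.0055 and 0.002). The kinases Ikbke and Tbk1, which phosphorylate IRF3 and IRF7, rose by 0.35 and 0.32 log2, and Irf5 rose by 0.39 log2 (limma adjusted p 0.003, 0.006 and 0.0027). Mavs, the adaptor through which RIG-I signals, lay at -0.53 ± 0.09 log2 (limma adjusted p 0.00013), and in Mst1 at -0.69 ± 0.09 log2 (7.6e-06). So Ddx58 and its adaptor went in opposite directions in the double mutant. The count of falls was 2 without Mst1 1466.

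In Mst1, 4 of these 22 rose and 4 fell, beside 12.6% and 14.2% of all genes. Tlr8, Tbk1 and Irf5 rose there too, by 0.50, 0.29 and 0.26 log2 (limma adjusted p 0.034, 0.013 and 0.041). Ifih1, which encodes the RNA sensor MDA5, and Tlr3, an endosomal receptor for double-stranded RNA, both lay at -0.33 log2 (limma adjusted p 0.011 and 0.0056). The count of rises in Mst1 was 1 without Mst1 1838 or Ntg 1657, and 2 without Mst1 1840, Ntg 1662 or Ntg 1834. In dnPI3K, 0 rose and 1 fell, Mavs at -0.33 log2 (limma adjusted p 0.043). That fall was kept without Mst1 1466, Mst1 1840 or dnPI3K-Mst1 1647, and the count was 0 without each of the other 13 animals. There 1 rose without Mst1 1466, Ntg 1301 or dnPI3K 1507. Of 8 nucleic acid clearance genes tested, 0 rose and 1 fell in the double mutant, Pnpt1 at -0.42 ± 0.07 log2 (limma adjusted p 9.3e-05), and 3 fell without Mst1 1466. In Mst1, 0 rose and 3 fell.

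Feedback inhibitors of the pathway rose in 7 of 16 and fell in 0 in the double mutant, beside 16.4% and 14.2% of all genes. Usp18, the ISG15 protease that also blocks the type I receptor, rose by 0.35 ± 0.08 log2 (limma adjusted p 0.0027), and Tnfaip3, which encodes the deubiquitinase A20, by 0.46 ± 0.12 log2 (0.0053). Cyld, also a deubiquitinase, rose by 0.48 ± 0.10 log2 (limma adjusted p 0.00067). The phosphatases Ptpn1 and Ptpn2, which act on JAK kinases and STATs, rose by 0.35 and 0.25 log2 (limma adjusted p 0.0045 and 0.024). In Mst1, 4 of the 16 rose and 3 fell, beside 12.6% and 14.2% of all genes. Cyld, Ptpn2 and Ptpn1 were among the risers there, at 0.59, 0.45 and 0.31 log2 (limma adjusted p 9.7e-05, 0.00031 and 0.011), and Rnf125, a ubiquitin ligase that acts on RIG-I, was among the falls at -0.42 log2 (0.028). The count of falls in Mst1 was 0 without Mst1 1839 or Ntg 1301, and 1 without Mst1 1838, Mst1 1840, Ntg 1657, Ntg 1662 or Ntg 1834. In dnPI3K 0 of the 16 were called either way by limma, with 2 at an unadjusted p under 0.05. 1 fall was called in the double mutant without Ntg 1657 or without dnPI3K-Mst1 1647.

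Of 57 other type I interferon-stimulated genes tested, 5 rose and 2 fell in the double mutant, where 16.4% and 14.2% of all genes did. In Mst1, 2 rose and 12 fell, where 12.6% and 14.2% of all genes did. The median difference was 0.02 log2 in the double mutant and -0.14 log2 in Mst1, where the median of all genes was 0.02 and 0.00. Among the risers of the double mutant, Slfn2, of the Schlafen family, rose by 0.58 ± 0.13 log2, Tor3a by 0.47 ± 0.08 log2 and Herc6, the main ISG15 ligase of the mouse, by 0.32 ± 0.09 log2 (limma adjusted p 0.0017, 0.00012 and 0.0073). Cd274, which encodes PD-L1, lay at -0.44 ± 0.11 log2, and Ifi205, of the nucleic acid binding HIN-200 family, at -1.53 ± 0.23 log2 (limma adjusted p 0.0063 and 3.5e-05). The count of 5 rises fell to 3 without Ntg 1657, Ntg 1834, dnPI3K-Mst1 1509 or dnPI3K-Mst1 1647. In Mst1 the count of rises was 1 without Mst1 1466 or Ntg 1657. In dnPI3K 0 of 57 were called either way by limma, with 5 at an unadjusted p under 0.05.

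Of 23 genes typical of interferon gamma and of antigen presentation, 0 rose and 14 fell in Mst1, and 0 rose and 7 fell in the double mutant. In each of these genotypes 14.2% of all genes were called lower. The guanylate-binding protein gene Gbp4 lay at -1.40 ± 0.18 log2 in Mst1 and -1.19 ± 0.18 log2 in the double mutant (limma adjusted p 7.6e-06 and 4e-05). Iigp1, an immunity-related GTPase, lay at -1.38 ± 0.26 and -1.20 ± 0.26 log2 (limma adjusted p 0.00038 and 0.0012). The MHC class I gene H2-Q4 and the proteasome activator subunit Psme1 lay at -0.69 and -0.49 log2 in the double mutant (limma adjusted p 0.0013 and 8e-05). The median of the 23 was -0.39 log2 in Mst1 and -0.23 log2 in the double mutant. The count for the double mutant was 11 without Mst1 1466 or dnPI3K 1660. In dnPI3K 0 were called by limma, with 3 at an unadjusted p under 0.05, and 1 fell without Mst1 1466, Ntg 1301 or dnPI3K 1660.

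Of 10 endothelial markers 6 fell and 0 rose in Mst1, among them Tek and Kdr, both at -0.79 log2 (limma adjusted p 7.2e-06 and 0.00014), and 1 rose without Mst1 1466. Their mean level ran from 9.10 to 9.35 log2 in Ntg animals and from 8.63 to 8.97 in Mst1, so the groups did not overlap. Of 8 smooth muscle and pericyte markers 4 fell in Mst1, with the pericyte gene Abcc9 at -1.13 log2 (limma adjusted p 6.4e-07), and 3 rose, with mean levels of 7.84 to 8.14 log2 against 7.63 to 7.90 in Ntg. The part of these markers in the falls of the interferon gamma list was not tested.

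**Figure D4:**
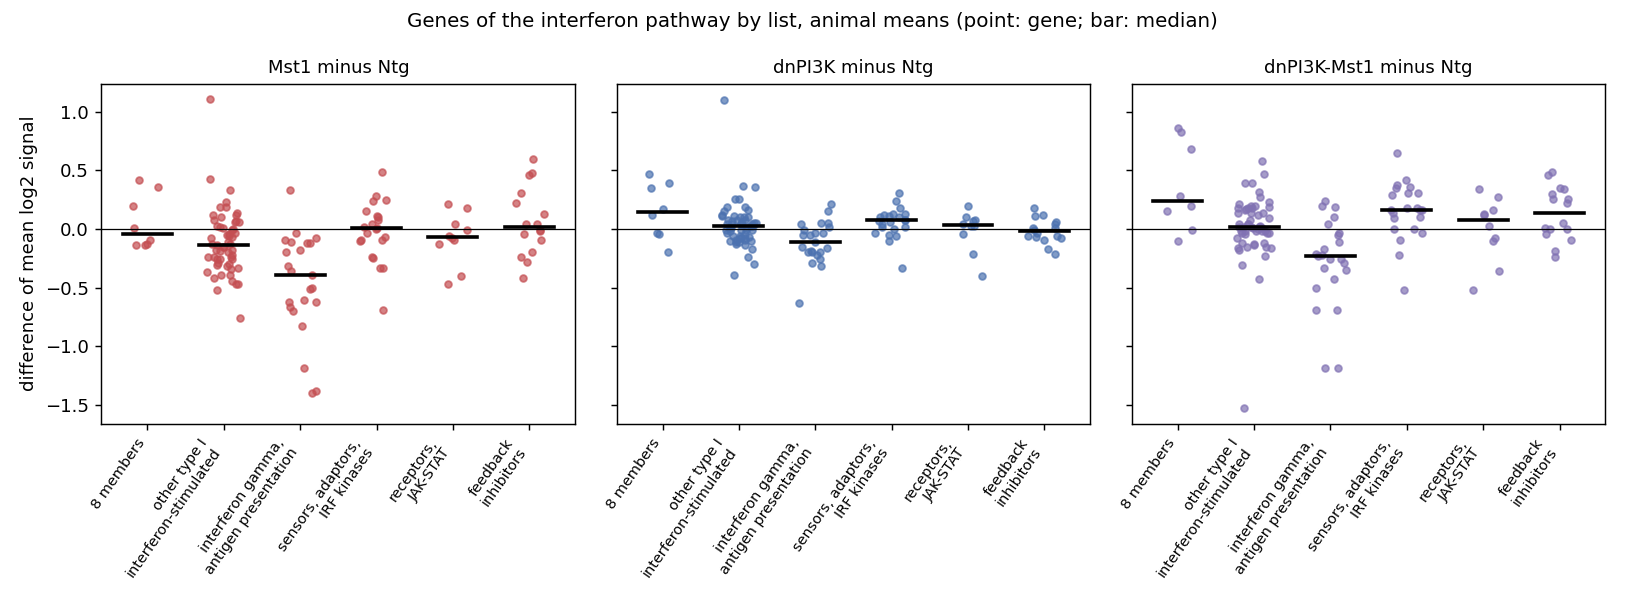
Difference of the mean log2 signal from Ntg (y axis) for genes of the interferon pathway, by list (x axis), in each transgenic genotype. Each point is 1 gene tested and bars are medians. In Mst1 and the double mutant the medians of the interferon gamma and antigen presentation list are -0.39 and -0.23 log2, while that of the members in the double mutant is 0.24.

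Markers of other cell types moved beside the IFIT genes in the double mutant. The counts again stand beside 16.4% of all genes called higher and 14.2% called lower. Of 6 pan-leukocyte markers 4 rose, among them Ptprc, the CD45 gene, by 0.68 ± 0.16 log2 (limma adjusted p 0.0025). Ptprc was 6.96, 7.85, 7.02 and 6.85 log2 in the double mutants 1509, 1647, 1649 and 1650. All lay above the 6.43 to 6.59 log2 of Ntg, but 1647 stood apart and enlarged the mean difference. The mean level of the 6 ran from 6.96 to 7.31 log2 in Ntg animals and from 7.40 to 8.06 in double mutants. The medians were 7.13 and 7.52 log2. Macrophage and monocyte markers rose in 8 of 18 and fell in 1. Their mean levels were 6.96 to 7.33 log2 in Ntg (median 7.04) and 7.17 to 7.72 in the double mutant (median 7.32). That count of rises was 4 without Ntg 1657, Ntg 1834 or dnPI3K-Mst1 1509, and 3 without dnPI3K-Mst1 1647. The falls were 2 without Mst1 1466 or Ntg 1657. Fibroblast markers rose in 8 of 10, with mean levels of 9.14 to 9.74 log2 in Ntg and 9.94 to 10.4 in the double mutant. The medians were 9.36 and 9.96 log2. Smooth muscle and pericyte markers rose in 3 of 8 and fell in 1, with mean levels of 7.63 to 7.90 log2 in Ntg and 8.18 to 8.43 in the double mutant. The contractile genes Cnn1 and Tagln averaged 8.05 and 9.05 log2 there against 5.88 and 7.01 in Ntg (limma adjusted p 5.1e-07 and 2.2e-09). The fall count of this list was 2 without Ntg 1834 and 3 without Ntg 1657 or dnPI3K-Mst1 1509. Endothelial markers rose in 2 of 10, Eng by 0.59 log2 and Emcn by 0.42 log2 (limma adjusted p 0.0011 and 0.002), and fell in 2. That count of falls was 1 without Ntg 1301, Ntg 1657, dnPI3K-Mst1 1649 or dnPI3K-Mst1 1650. The mean level of the endothelial markers ran from 9.02 to 9.29 log2 in the double mutant and overlapped Ntg.

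In dnPI3K 0 of 6 pan-leukocyte and 0 of 18 macrophage markers were called by limma, with 0 and 2 at an unadjusted p under 0.05. Of all genes 1.29% were called higher and 2.75% lower in dnPI3K, so a count of 0 in lists this short says little. Of 10 fibroblast markers 1 rose there, Pdgfra by 0.50 log2 (limma adjusted p 0.012), and 1 fell without Ntg 1834. Of the endothelial and the smooth muscle markers 0 were called in dnPI3K, with 2 and 1 at an unadjusted p under 0.05, and 1 of each rose without Mst1 1466. In Mst1 the pan-leukocyte and macrophage counts called higher were 1 of 6 and 1 of 18, and 0 to 1 and 1 to 2 with 1 animal left out. The macrophage markers Timd4 and Cd163 fell in Mst1 (-0.83 and -0.54 log2, limma adjusted p 4.3e-07 and 0.041), and 1 fall was left without Mst1 1839, Ntg 1301, Ntg 1662 or Ntg 1834. Fibroblast markers rose in 3 of 10 in Mst1, with mean levels of 9.73 to 9.76 log2. Plasmacytoid dendritic markers rose in 0 of 5 in the double mutant and fell in 1, Cox6a2, which heart muscle also expresses. Of 5 T cell markers tested 1 rose, Cd3g, and 0 rose without Ntg 1301, Ntg 1662 or dnPI3K-Mst1 1509. NK cell and B cell markers lay below or near the filter, with mean levels of 3.71 to 3.89 and 4.25 to 4.54 log2 in the double mutant. Atrial cardiomyocyte markers fell in 5 of 10 and rose in 1. With 1 animal left out, 4 to 5 fell and 0 to 1 rose. Without the 4 animals whose arrays correlated less, 6 fell and 0 rose. In such bulk tissue, more cells of a type and more RNA per cell cannot be told apart, and the part of these markers in the rise of the IFIT genes was not tested.

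Across the 16 animal means, the 3 IFIT genes and Ddx58 each followed the mean of the other members, with a Pearson r of 0.72 to 0.79. The value was 0.61 for Oasl2, 0.51 for Irf7, 0.17 for Stat2 and -0.17 for Irf9. With the genotype means taken out, r was 0.63 for Irf7, 0.62 for Ddx58, 0.52 for Ifit2 and Ifit3, 0.40 for Oasl2, 0.24 for Ifit1, 0.15 for Stat2 and 0.12 for Irf9. These values describe 16 animals that share 4 genotypes. The genes outside the members whose animal means were most like those of the members were Bicc1 and Sfrp1 (r 0.91 each), Olfml1 (0.89) and Slc9a9 (0.87). Sfrp1 encodes a secreted inhibitor of Wnt. With genotype means taken out they were Apol7d (0.87), Igkv4-55, an immunoglobulin kappa segment (0.85), and Irf4, a lymphoid and myeloid transcription factor (0.81).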

How the data were processed

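Total RNA (100 ng per sample) of each atrium went onto an array of its own, per the labels' protocols. The log2 probe set signals were used as deposited. Per the submitters' processing notes, Affymetrix Expression Console and PLIER were used, with no version or role given. The base of the logarithm is not given in the sources used here and is read from the spread of values between 1.16 and 14.08. The number of arrays limits the precision.

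Of 35512 probe sets 21789 carried 1 symbol, 1621 several and 12102 none, and the first kind was used, the brightest per gene. Genes under 4.48 log2, the 30th percentile of the probe sets, were left out. The mean of both atria of each animal, the Bmp10-high and Bmp10-low arrays (limit 9 log2) and the within-animal difference were each fitted in limma 3.58.1 (R 4.3.3, eBayes with a trend), two-sided, with Benjamini-Hochberg adjustment over 15219 genes. Called means an adjusted p under 0.05. Nothing beyond the spread among these animals enters the p-values.

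Both arrays of an animal carry its number, so they are paired by animal. Correlations of their deviations from group means ran from -0.01 to 0.44, with a median of 0.22, and exceeded 0.1 in 12 of 16 animals. No array was left out, and no 2 arrays correlated above 0.9903. The members and gene lists were chosen with earlier results of these data known. Lists share no members with the 9. Named genes are all members, up to 6 called genes of each pathway list and 3 of each marker list with the largest change per comparison, and the genes most like the members; the text gives a selection. Ifnb1, Ifng and Trim12a were added outside this rule. The procedure was also run on simulated data in which all arrays were drawn independently, so that run did not test the pairing by animal. Alternatives were quantile normalization, centring, no filter, averaged probe sets, no variance trend, array weights, labelled sides, the replicate block and each animal left out; leaving out the 4 animals with an array of low correlation was chosen after seeing the data.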

Additional observations from a re-analysis of the deposited data

Results flagged for a closer look

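Values were examined in 120 groups of 4 samples, of which 11 held 1 sample far from the rest; chance gives about 1 in 20. In the Bmp10-high atria of dnPI3K, Ifit1 was 5.03 log2 in animal 1507 against 5.78 to 5.86 in the others. Ifit2 was 6.61 in 1660 against 6.12 to 6.20, and Ifit3 was 5.17 in 3241 against 5.94 to 6.08. The arrays of 1507 and 3241 labelled left, which these are, are among the 4 with a mean correlation under 0.97.

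Ddx58 was 7.41 log2 over both atria of Mst1 1466 against 7.26 to 7.28, and 7.30 in the Bmp10-low atrium of Ntg 1834 against 7.48 to 7.51. Stat2 was 6.86 in the Bmp10-high atrium of dnPI3K-Mst1 1650 against 7.06 to 7.09. Oasl2 was 7.32 over both atria of dnPI3K 1660 against 6.88 to 6.92, and 6.93 in the Bmp10-low atrium of Mst1 1839 against 6.75 to 6.76. Ifi205 was 6.41 over both atria of Mst1 1840 against 6.17 to 6.20, 6.20 in the Bmp10-high atrium of Mst1 1839 against 6.42 to 6.46, and 7.46 in the Bmp10-low atrium of dnPI3K 1648 against 8.34 to 8.36.

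Ifi205, named among the other interferon-stimulated genes, differed between the atria in a way that depended on genotype. In Ntg it averaged 8.07 ± 0.50 log2 (SD, n = 4) in the Bmp10-low and 5.94 ± 0.82 in the Bmp10-high atrium. In dnPI3K the levels were 8.13 ± 0.45 and 6.26 ± 0.50. In Mst1 they were 6.10 ± 0.24 and 6.38 ± 0.12, and in the double mutant 5.43 ± 0.33 and 5.52 ± 0.32. The difference between the atria, high minus low, was -2.13 ± 0.18 log2 (SE) in Ntg, and it was 2.42 ± 0.25 log2 greater in Mst1 and 2.23 ± 0.25 log2 greater in the double mutant (limma adjusted p 6.71e-06 and 1.79e-05). For dnPI3K against Ntg this interaction was 0.26 ± 0.25 log2 (limma adjusted p 0.809).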

How the results depend on the processing

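There were 19 calls of a member in the comparisons above. Over their 456 alternatives 408 kept the call and the direction, 48 lost the call and 0 reversed. Ifit2 over animal means, and Ifit1, Ifit2 and Ifit3 in the double mutant against Ntg over animal means and in Bmp10-high atria, passed in 24 of 24 alternatives each. For Bmp10-high atria these include the arrays labelled right, most of which came from Bmp10-low atria. The causes of the changes below were not tested.

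Counts of members called higher in the double mutant against Mst1 (2) became 1 with arrays centred on their median, 5 with array weights, 4 with the replicate block and 4 without the 4 animals of arrays that stand apart; leaving out 1 animal gave 1 to 4. Against dnPI3K the count (2) became 1 without those 4 animals and 1 to 2 without 1 animal. For Mst1 against dnPI3K the count lower (1) became 2 with quantile normalization, array weights or the replicate block, 0 with centring, and 0 to 2 without 1 animal. The replicate block changed no other count by more than 1.5 times.

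In Bmp10-high atria the count in Mst1 (0) became 2 with array weights and 1 with the arrays labelled right. The arrays labelled right were Bmp10-high in 3 animals only, 2 Ntg and 1 Mst1, and Bmp10-low in the other 13. Taking the labelled sides thus mostly exchanged the atria, here and for the arrays labelled left below. In dnPI3K (0) it became 1 with the arrays labelled right and 1 without the 4 animals, and 0 to 1 without 1 animal. In the double mutant (3) it became 6 with array weights, 5 without the 4 animals, and 3 to 4 without 1 animal. In Bmp10-low atria the count in Mst1 (1) became 0 with the arrays labelled left and 1 to 2 without 1 animal, and 1 member was called lower with array weights. In dnPI3K (1) it became 0 with centring, with the arrays labelled left and without the 4 animals, and 0 to 1 without 1 animal. In the double mutant (3) it became 1 with quantile normalization, centring, array weights or without the 4 animals, and 1 to 4 without 1 animal. Over animal means, leaving out 1 animal gave 1 to 2 in Mst1 and 3 to 4 in the double mutant against Ntg.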

Other observations

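Trim12a, a tripartite motif gene in the list of other interferon-stimulated genes, was chosen for mention after its values were seen. Its signal fell into 2 ranges that crossed the genotypes, 3.34 to 4.03 log2 in 4 animals and 5.81 to 6.42 log2 in the other 12. The 4 were Ntg 1301 (3.93) and 1662 (4.03) and dnPI3K-Mst1 1649 (3.34) and 1650 (3.46). The other animals of the same genotypes were Ntg 1657 (5.81) and 1834 (6.31) and dnPI3K-Mst1 1509 (6.42) and 1647 (6.23). Mst1 and dnPI3K held no animal in the low range.

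Other genes of the pathway differed between the atria over the 4 genotypes. In the Bmp10-high atrium the RNA receptors of the endosome parted, with Tlr8 higher by 0.48 ± 0.12 log2 (SE) and Tlr7 at -0.45 ± 0.09 log2 (limma adjusted p 0.00872 and 0.00121). The chemokine genes Ccl5 and Cxcl9 were higher there by 0.41 ± 0.09 and 0.49 ± 0.11 log2 (limma adjusted p 0.002 and 0.00455). Eif2ak2, which encodes the RNA-dependent kinase PKR, lay at -0.18 ± 0.05 log2 (limma adjusted p 0.0273).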
